A study of Homo sapiens with 12 samples.

Results

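The p53 target genes that act in cell cycle arrest, DNA repair and metabolism, together with linked targets for cell death, secreted signals and RNA control, were followed as a module of 46 mRNAs. Members were chosen by gene symbol from a list of known p53 targets. No measured value entered the rule, but the choice was made with earlier results of these data known. All 46 symbols were found among the 60580 genes listed per library, and all 46 were among the 16123 genes that passed the filter of at least 20 counts in at least 1 library. RNA was sequenced from HCT116, an established human colorectal cancer cell line with functional p53. *WT* cells were clones made by transfection with Cas9 and no guide RNA, and *miR-34a/b/c-KO* clones (*KO* cells) were those in which CRISPR-Cas9 had cut the stretches for the mature miRNAs out of the host genes of miR-34a and of miR-34b/c, so that clonal differences and the deletion cannot be told apart. Both genotypes were treated for 48 h with DMSO, the solvent control, or with 5-FU, a pyrimidine analog that blocks thymidylate synthesis and is built into RNA and DNA. The 4 groups comprised 3 libraries each, except for *WT* cells under 5-FU, where replicates 2 and 3 remained because replicate 1 held the counts of *WT* replicate 3 in DMSO, with a difference in 0 of 60580 genes. The 11 libraries used held 22831415 to 39064210 counts on genes (median 25698417), and the biological coefficient of variation within groups was 6.72%.

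p53 is a transcription factor that is stabilized by DNA damage and nucleolar stress and binds pairs of half-sites in the promoters and first introns of its target genes. Its targets halt the cell cycle, foremost through p21, the product of *CDKN1A*, and they also encode damage sensors, antioxidant and mitochondrial proteins, pro-apoptotic factors and secreted ligands. The miR-34 family is induced by p53 as well and represses mRNAs that carry matches to its seed in their 3′ UTRs.

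The sequences that link these genes to p53 and to miR-34 were read from the reference, to show which members carry either in the windows searched. For p53, 5 kb on both sides of the annotated start (Ensembl canonical transcript, GENCODE release 44, hg38) was searched on both strands for the canonical p53 motif, 2 half-sites of 10 bases without a spacer. With at most 1 mismatch and the C and G of both cores kept, 5 of 46 members (10.87%) held a match, against 146 of the other 14089 tested genes with a position (1.04%). Of these matches 4 are shown on the strand of the gene, and capitals mark the 4 core bases of each half-site.
PLK2: aaaCATGcctggaCTTGccc
ZMAT3: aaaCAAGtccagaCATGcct
DDB2: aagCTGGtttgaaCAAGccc
EDA2R: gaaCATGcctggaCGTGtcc

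The elements of *PLK2* (chr5:58462274-58462293, minus strand, at −2197 relative to the start) and *ZMAT3* (chr3:179070188-179070207, minus strand, intron 1) had 0 mismatches. Those of *DDB2* (chr11:47214969-47214988, plus strand, exon 1) and *EDA2R* (chrX:66638713-66638732, minus strand, intron 1) had 1 mismatch each. Allowing 2 mismatches, a setting added after the data had been seen, gave 15 members (32.61%) and 1122 other genes (7.96%), the additional members including *ABCA12*, *AEN*, *BTG2*, *CMBL*, *DCP1B*, *GDF15*, *GLS2*, *PANK1* and *SPATA18*. A match is a description of the letters and no evidence of binding, and members without one may hold elements outside these windows or with a spacer.

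For miR-34, the mature sequences are given from RefSeq (GRCh38.p14) with the seed, bases 2 to 8, in capitals. miR-34a-5p is encoded at chr1:9151735-9151756 (minus strand) and miR-34b-5p at chr11:111512950-111512972 (plus strand).
hsa-miR-34a-5p: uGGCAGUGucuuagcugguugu
hsa-miR-34b-5p: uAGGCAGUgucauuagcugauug

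The 3′ UTRs of the canonical transcripts (GENCODE release 44) were searched for CACTGCC, the match to the miR-34a seed. It was present in 6 of 46 members (13.04%) and in 2297 of 13043 other tested genes (17.61%). The 6 sites are printed with 8 flanking bases on each side and the match in capitals, to show which members hold this match. The seed of miR-34b-5p is shifted by 1 base, and its match was not searched here. The mature sequence of miR-34c-5p was not among the reference sequences used and is not printed.
CYFIP2: agtcatagCACTGCCtatagcat
FBXO22: caggtttgCACTGCCataaattc
KITLG: gcttaccaCACTGCCacatttta
TIGAR: agtattttCACTGCCctaaaagt
XPC: gctgccctCACTGCCtctttgca
ZMAT3: aggcaataCACTGCCctaaattc

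These matches lie at chr5:157393836-157393842 (*CYFIP2*), chr15:75936178-75936184 (*FBXO22*), chr12:88494569-88494575 (*KITLG*, minus strand), chr12:4356705-4356711 (*TIGAR*), chr3:14145417-14145423 (*XPC*, minus strand) and chr3:179019393-179019399 (*ZMAT3*, minus strand). None of the 6 genes was called different between the genotypes in DMSO or in 5-FU. Their median log2 fold change of *KO* against *WT* cells was 0.30 in DMSO and 0.04 in 5-FU, beside 0.37 and 0.26 for the 40 members without the match.

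5-FU raised nearly the whole module in both genotypes. In *WT* cells 40 of 46 members rose and 1 fell, at FDR < 0.05 and an absolute fold change > 1.5 (edgeR, quasi-likelihood test, adjusted over all genes), where 18.5% of all genes tested rose and 9.38% fell. In *KO* cells 43 rose and 1 fell, beside 13.3% and 12% of all genes. The median log2 fold change of the members was 1.65 in *WT* and 1.60 in *KO* cells, and that of all genes 0.03 and −0.06. These medians were 1.67 and 1.60 with genes without counts in 1 group set at their lower bound and without *SPATA18* in *WT* cells, which had no counts in either treatment. Bulk RNA does not tell a larger share of responding cells from more RNA per cell. Of the members, 39 were called higher in both genotypes, *KITLG* was called lower in both, *EDA2R* was called higher in *WT* cells alone, and *GLS2*, *SPATA18*, *TNFAIP8* and *DCP1B* were called higher in *KO* cells alone. Of these, *EDA2R* passed the count filter in 1 *WT* library under 5-FU alone, *GLS2* in 1 and *SPATA18* in 2 *KO* libraries under 5-FU alone, so that their calls are no support for a rise. Without these 3 genes 39 of 43 members rose in *WT* and 41 of 43 in *KO* cells, with medians of 1.62 and 1.56. *LIF* passed the FDR but not the fold change in either. At FDR < 0.05 with any fold, 42 members rose and 1 fell in *WT* cells, beside 31.9% and 28.3% of all genes, and 44 rose and 1 fell in *KO* cells, beside 26.6% and 33.8%. Every 5-FU library lay above every DMSO library for 43 members in *WT* and 44 in *KO* cells, as it did for 36.5% and 30.4% of all genes, and below for 1 member in each, as for 32.3% and 38.4% of all genes.

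**Figure D1:**
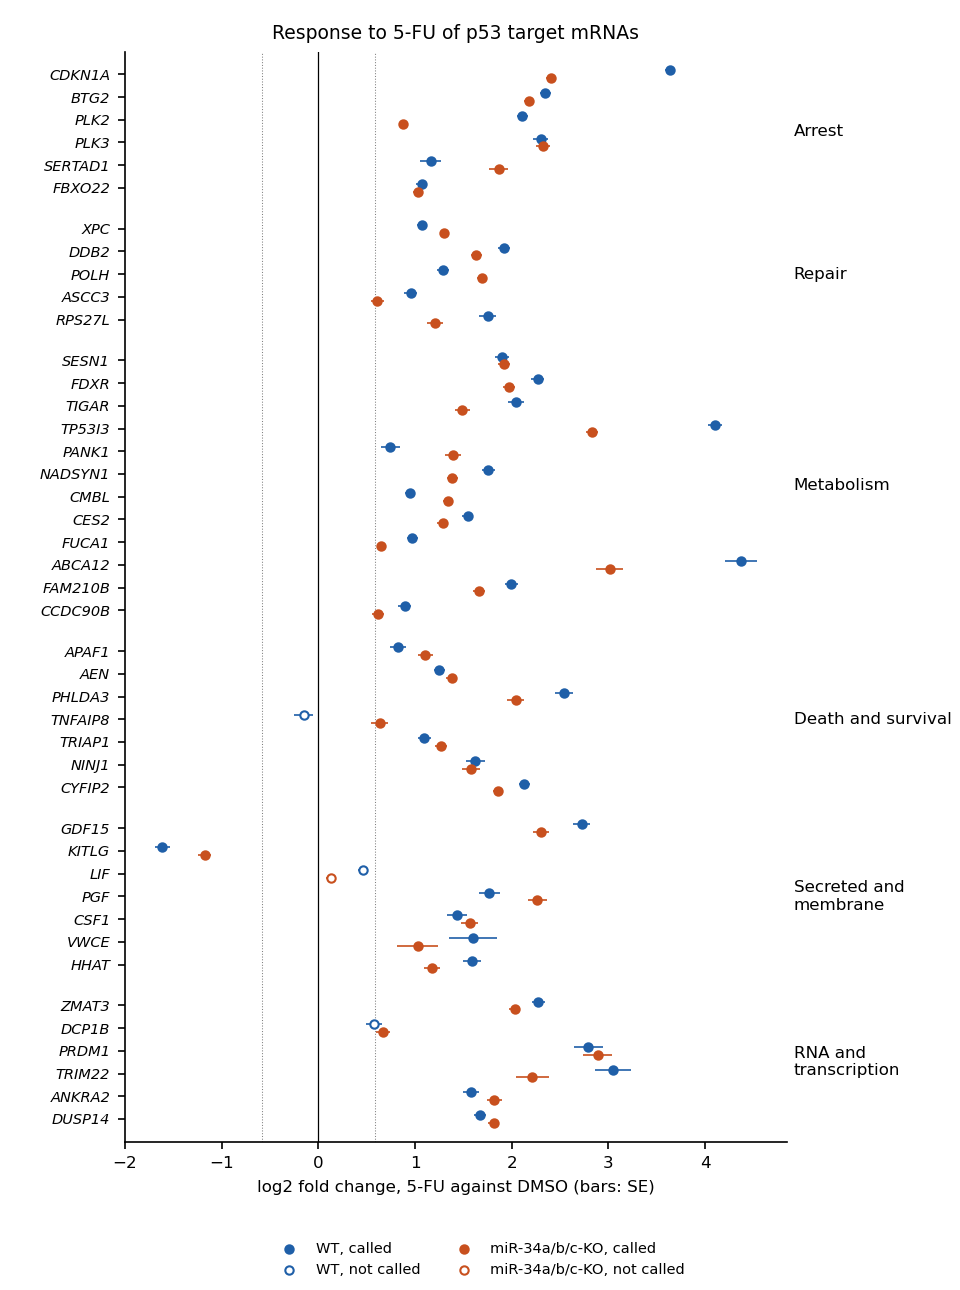
Log2 fold change of 5-FU against DMSO (horizontal axis) for 43 members ordered by role, in *WT* cells (blue) and *KO* cells (orange), with bars for the standard error, filled circles for called changes and dotted lines at the minimum fold change of 1.5 (*SPATA18*, *EDA2R* and *GLS2*, at few counts, are left out). *KITLG* is the only member left of zero in both genotypes, and the blue points of *CDKN1A*, *PLK2*, *TP53I3* and *ABCA12* lie over 1 log2 unit to the right of the orange ones.

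With removal of 1 factor of unwanted variation (RUVg), a factor of which 98.16% lay between the treatments, 0 members were called in either 5-FU comparison by edgeR, beside 3 of all genes in *WT* and 1 in *KO* cells. Apart from the copied library kept under its label, no other alternative moved the counts of 40 and 43 by more than 1.5 times.

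Between the genotypes, the differences were smaller and mostly toward *KO* cells. In DMSO 14 members were higher in *KO* cells, beside 9.1% of all genes, and 0 were lower, beside 4.97% of all genes. At an unadjusted p under 0.05, 33 members were higher and 3 lower by edgeR, where 8503 of all 16123 genes passed in either direction. DESeq2 called 12 members higher and 0 lower, beside 1281 and 839 of all 16123 genes. Under 5-FU 9 members were higher and 1 was lower in *KO* cells, beside 7.58% and 10.6% of all genes, and without *GLS2*, *SPATA18* and *EDA2R* 13 of 43 members were higher in DMSO, 7 were higher under 5-FU and 0 lower under either. *BTG2*, *FUCA1* and *ANKRA2* were also called higher under 5-FU with TMM factors (0.59, 0.60 and 0.61) and with DESeq2 (0.60, 0.61 and 0.62). DESeq2 there called 1339 of all 16123 genes higher and 1332 lower. The counts of 14 and 9 thus depended on the scaling. *GDF15* and *SESN1* were called higher under both treatments. So was *SPATA18*, but it passed the count filter in 2 *KO* libraries under 5-FU alone, so that its calls are no support for a difference. At FDR < 0.05 with any fold, 31 members were higher and 3 lower in DMSO, beside 24.5% and 21.9% of all genes, and 23 were higher and 4 lower under 5-FU, beside 21.6% and 28%. All *KO* libraries lay above all *WT* libraries for 32 members in DMSO and 28 under 5-FU, as for 30.1% and 27.9% of all genes, and below them for 4 and 7 members, as for 27.4% and 35.1% of all genes. The median of the members was 0.35 in DMSO (0.33 over 44 members, with *SPATA18* set against a floor of 3 counts in *WT* cells and without *GLS2* and *EDA2R*, which were at or under the floor of 3 counts in both groups) and 0.22 in 5-FU, that of all genes 0.03 and −0.05.

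The 5-FU response itself differed between the genotypes (interaction) for 8 members. It was smaller in *KO* cells for *CDKN1A*, *PLK2*, *TP53I3*, *ABCA12* and *TRIM22* and larger for *SERTAD1*, *PANK1* and *TNFAIP8*, that is 5 of 46 lower and 3 of 46 higher, beside 6.66% and 3.42% of all genes. With any fold, 21 were lower and 8 higher, beside 16% and 10.1% of all genes. Over all genes, 1073 interactions were lower and 551 higher, a split that moved to 844 and 676 with TMM factors and to 679 and 703 with DESeq2, whereas the members stayed at 5 and 3 with TMM and were 4 and 3 with DESeq2. The interaction and both 5-FU comparisons share their DMSO libraries with the comparison of the genotypes in DMSO, so that their values are given side by side.

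Among the arrest genes, *CDKN1A* is the mRNA of the CDK inhibitor p21. It was at 167, 166 and 168 CPM in *WT* cells in DMSO, at 2179 and 1977 CPM under 5-FU, at 453, 488 and 467 CPM in *KO* cells in DMSO and at 2431, 2534 and 2477 CPM under 5-FU. The groups did not overlap in any comparison, and the *KO* libraries were the higher ones under both treatments. 5-FU raised *CDKN1A* by 3.64 on the log2 scale in *WT* cells (SE 0.05, FDR 5.26e-17, edgeR) and by 2.40 in *KO* cells (SE 0.05, FDR 1.35e-15, edgeR). The genotypes differed by 1.49 in DMSO (SE 0.05, FDR 9.37e-13) and by 0.26 under 5-FU (SE 0.05, FDR 0.000618, under the minimum fold change), and the interaction was −1.24 (SE 0.07, FDR 1.41e-08). Relative to the 5-FU level of *WT* cells, *CDKN1A* stood at 8.03% in *WT* and at 22.6% in *KO* cells in DMSO.

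*PLK2*, a polo-like kinase of the damage response whose upstream match had 0 mismatches, showed the same order in DMSO but not under 5-FU. It was at 49.3, 46.9 and 48.0 CPM in *WT* and at 106.7, 102.3 and 104.3 CPM in *KO* cells in DMSO, and at 196 and 219 CPM in *WT* and 190.7, 193 and 193 CPM in *KO* cells under 5-FU. The DMSO groups were thus far apart, while under 5-FU the 3 *KO* libraries lay just below both *WT* libraries (−0.11, SE 0.05, FDR 0.0892). In DMSO the genotypes differed by 1.12 (SE 0.05, FDR 5.73e-11, edgeR). Its response was 2.11 (SE 0.05, FDR 2e-14, edgeR) in *WT* and 0.88 (SE 0.05, FDR 1.81e-10) in *KO* cells, with an interaction of −1.23 (SE 0.07, FDR 2.7e-08). Its relative *PLK3* rose by 2.30 (SE 0.08) and 2.32 (SE 0.07), with an interaction of 0.03 (SE 0.10, FDR 0.88).

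*SERTAD1*, which binds CDK4, went the other way. It was at 20.6, 24.0 and 22.0 CPM in *WT* and 21.7, 23.3 and 23.04 CPM in *KO* cells in DMSO, and at 57.9 and 41.1 CPM in *WT* and 79.5, 83.2 and 85.0 CPM in *KO* cells under 5-FU. The genotypes overlapped in DMSO and were separate under 5-FU, where *KO* cells were higher by 0.73 (SE 0.11, FDR 3.23e-05, edgeR). Its response was 1.16 (SE 0.11) in *WT* and 1.86 (SE 0.10) in *KO* cells, with an interaction of 0.70 (SE 0.15, FDR 0.00281, edgeR), and without replicate 3 of *WT* cells under 5-FU both differences fell under the minimum fold change, at 0.51 and 0.48. *BTG2*, an antiproliferative protein that recruits a deadenylase, rose by 2.35 and 2.18 and was higher in *KO* cells in DMSO by 0.72 (SE 0.06, FDR 3.71e-08). Under 5-FU its difference was 0.55 (SE 0.06, FDR 1.12e-06, edgeR), under the minimum fold change, which it passed with TMM factors (0.59) and DESeq2 (0.60). *FBXO22*, a ubiquitin ligase subunit with a miR-34 match of the 8mer type, rose by 1.07 and 1.03, and its levels overlapped between the genotypes under both treatments (−0.01 in DMSO and −0.05 under 5-FU).

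**Figure D2:**
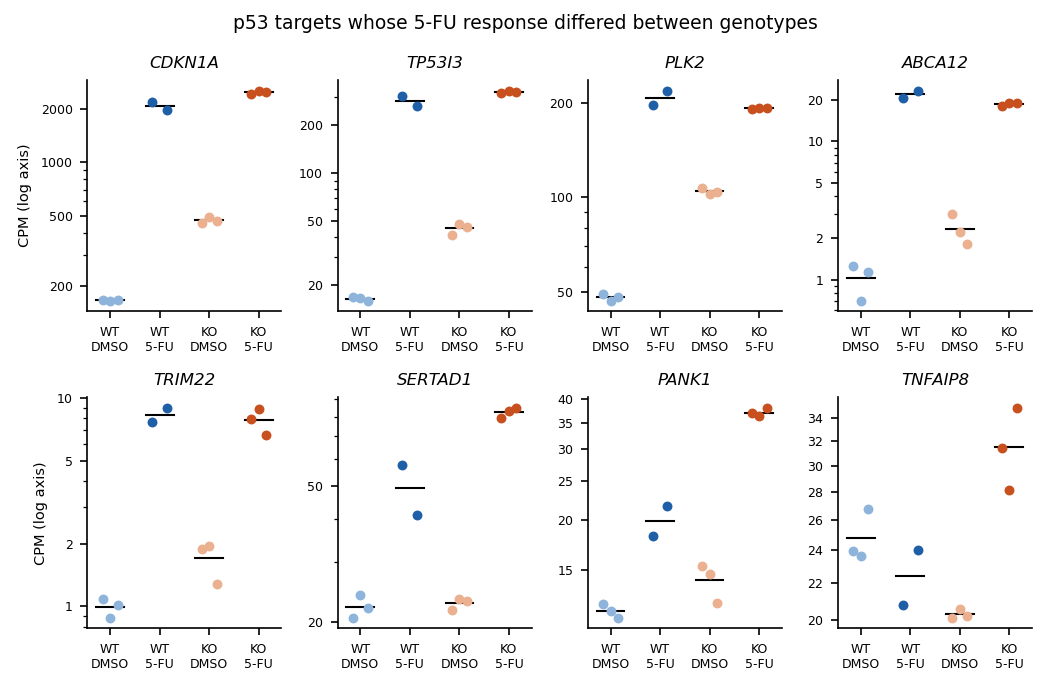
CPM of each library on a log axis for the 8 members with a called interaction, in the 4 groups (points, libraries; lines, group means). In the 5 genes *CDKN1A*, *TP53I3*, *PLK2*, *ABCA12* and *TRIM22* the *KO* libraries in DMSO lie above all *WT* libraries in DMSO, and in *SERTAD1*, *PANK1* and *TNFAIP8* the *KO* libraries lie above the *WT* libraries under 5-FU.

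All 5 repair genes rose in both genotypes. *XPC* and *DDB2*, damage sensors of nucleotide excision repair, rose by 1.07 and 1.92 in *WT* cells and by 1.30 and 1.63 in *KO* cells. *ASCC3*, a helicase of alkylation repair, rose by 0.96 and 0.61 (0.58 and under the minimum fold change without replicate 3 of *KO* cells under 5-FU), and *RPS27L*, a ribosomal protein paralog that binds MDM2, by 1.75 and 1.21. For *RPS27L* the counts may be shared with its paralog *RPS27*, since the treatment of ambiguous reads is not given in the sources used here. The repair genes were not called different between the genotypes in DMSO (0.11 to 0.45). None of the 5 interactions reached the minimum fold change, although all had an unadjusted p under 0.05, with *RPS27L* at −0.55 (SE 0.12, FDR 0.00346) and *POLH* at 0.40 (SE 0.08, FDR 0.00176, edgeR).

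*POLH*, the polymerase that copies past UV lesions, was the repair gene that differed under 5-FU. It was at 34.7, 37.9 and 33.9 CPM in *WT* and 50.3, 47.3 and 47.8 CPM in *KO* cells in DMSO, and at 83.6 and 89.3 CPM in *WT* and 157.9, 157.2 and 154.1 CPM in *KO* cells under 5-FU. The *KO* libraries were higher under both treatments without overlap, and the difference passed the minimum fold change under 5-FU alone, at 0.86 (SE 0.06, FDR 9.81e-09, edgeR) beside 0.45 (SE 0.06, FDR 6.96e-06) in DMSO.

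The metabolic genes formed the largest group, with 12 of 14 called higher in *WT* and 14 of 14 in *KO* cells, beside 18.5% and 13.3% of all genes. The 14 include *GLS2* and *SPATA18*, whose calls in *KO* cells are no support for a rise, and the other 12 were called in both genotypes. *TP53I3*, a quinone oxidoreductase, was at 16.8, 16.7 and 16.01 CPM in *WT* and 41.4, 47.9 and 46.4 CPM in *KO* cells in DMSO, and at 302.3 and 262.6 CPM in *WT* and 317, 329 and 319.7 CPM in *KO* cells under 5-FU. Its pattern followed that of *CDKN1A*, with *KO* libraries above *WT* libraries under both treatments and the wider gap in DMSO. It rose by 4.10 (SE 0.07, FDR 3.05e-16, edgeR) in *WT* and by 2.83 (SE 0.06, FDR 4.19e-15) in *KO* cells, differed by 1.46 (SE 0.07) between the genotypes in DMSO and by 0.19 (SE 0.06, FDR 0.0228, not called) under 5-FU, and had an interaction of −1.27 (SE 0.09, FDR 2.11e-07). *ABCA12*, a lipid transporter known from keratinocytes, was at 1.26, 0.706 and 1.13 CPM in *WT* and 2.97, 2.21 and 1.81 CPM in *KO* cells in DMSO, and at 20.7 and 23.2 CPM in *WT* and 18.0, 18.7 and 19.0 CPM in *KO* cells under 5-FU. In DMSO the *KO* libraries were the higher ones (1.12, SE 0.21, FDR 0.000385, edgeR), whereas under 5-FU they lay below the *WT* libraries by a difference that was not called (−0.24, SE 0.12, FDR 0.118). Its rise of 4.37 (SE 0.17, FDR 2.49e-12, edgeR) in *WT* cells was larger than that of 3.01 (SE 0.14, FDR 3.51e-11) in *KO* cells (interaction −1.36, SE 0.24, FDR 0.000795).

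*PANK1*, a pantothenate kinase that starts coenzyme A synthesis, was at 12.4, 11.9 and 11.4 CPM in *WT* and 15.4, 14.7 and 12.4 CPM in *KO* cells in DMSO, and at 18.2 and 21.7 CPM in *WT* and 36.9, 36.2 and 38.1 CPM in *KO* cells under 5-FU. Under 5-FU the *KO* libraries stood well apart from the rest, above *WT* cells by 0.90 (SE 0.09, FDR 1.18e-06, edgeR). It rose by 0.74 (SE 0.10) in *WT* and 1.39 (SE 0.09) in *KO* cells, with an interaction of 0.65 (SE 0.13, FDR 0.00204, edgeR). This interaction was 0.56 without replicate 3 of *KO* cells in DMSO and 0.53 without replicate 2 of *WT* cells under 5-FU, both under the minimum fold change.

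*GLS2* and *SPATA18* were measured at few counts. *GLS2*, the mitochondrial glutaminase, had 2, 0 and 0 counts in *WT* and 1, 3 and 1 in *KO* cells in DMSO, and 6 and 3 counts in *WT* and 27, 15 and 9 in *KO* cells under 5-FU. It reached the 20 counts of the filter only in replicate 1 of *KO* cells under 5-FU, so that a higher value in that group follows in part from the filter. As a description, the fitted differences were 3.29 (SE 0.70) between the treatments in *KO* cells and 2.30 (SE 0.66) between the genotypes under 5-FU, and an interaction (1.005, SE 1.89) was not detectable at this depth. *SPATA18*, a mitochondrial quality control factor also known as Mieap, had 0 counts in all 5 *WT* libraries, where 3 counts correspond to 0.0778 to 0.132 CPM. In *KO* cells it had 6, 2 and 2 counts in DMSO and 30, 22 and 17 under 5-FU, a fitted difference of 2.77 (SE 0.54). It reached 20 counts only in replicates 1 and 2 of *KO* cells under 5-FU, and its values are likewise a description. Against a floor of 3 counts per *WT* library, it was at least 10-fold higher under 5-FU. In DMSO the mean of the *KO* libraries was 1.23 times this floor, but replicates 2 and 3 were under 3 counts themselves, so that no bound is given there. Both genes were thus near the floor, and *SPATA18* had counts in 1 genotype alone.

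The other metabolic genes moved less between the genotypes. *SESN1*, a stress-induced inhibitor of mTORC1 signaling, rose by 1.90 and 1.92 and was higher in *KO* cells by 0.59 (SE 0.07, FDR 3.26e-06, edgeR) in DMSO and by 0.61 (SE 0.07, FDR 1.76e-06) under 5-FU, both just past the minimum fold change. *FDXR*, the mitochondrial ferredoxin reductase, rose by 2.27 and 1.97, and *FUCA1*, a lysosomal fucosidase, by 0.97 and 0.65, and both were higher in *KO* cells in DMSO (0.65 and 0.87). Under 5-FU these differences were 0.35 and 0.55, both under the minimum fold change. That of *FUCA1* passed it with TMM factors (0.60) and with DESeq2 (0.61). The mitochondrial protein *FAM210B* rose by 1.996 and 1.66 and differed by 0.60 in DMSO. The calls of *SESN1* and *FAM210B* in DMSO were lost with TMM factors (0.57 and 0.58) and with DESeq2 (0.56 and 0.57). That of *SESN1* was also lost without replicate 3 of *WT* or 2 of *KO* cells in DMSO (0.55 each), that of *FAM210B* without replicate 2 of *WT* or 3 of *KO* cells in DMSO (0.55 each), and the call of *SESN1* under 5-FU without replicate 2 of *WT* cells (0.55).

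*TIGAR*, a fructose-2,6-bisphosphatase that restrains glycolysis, rose by 2.04 and 1.49, with an interaction of −0.56 (SE 0.11, FDR 0.00222, edgeR) that stayed under the minimum fold change. *NADSYN1*, the NAD synthetase, rose by 1.76 and 1.38, *CES2*, a carboxylesterase that cleaves ester prodrugs, by 1.54 and 1.28, the hydrolase *CMBL* by 0.95 and 1.34, and *CCDC90B*, a mitochondrial membrane protein, by 0.89 and 0.62. None of these 5 genes was called different between the genotypes under either treatment. *CMBL* was the only metabolic gene with a lower value in *KO* cells in DMSO, at −0.33 (SE 0.05, FDR 7.57e-05), under the minimum fold change.

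**Figure D3:**
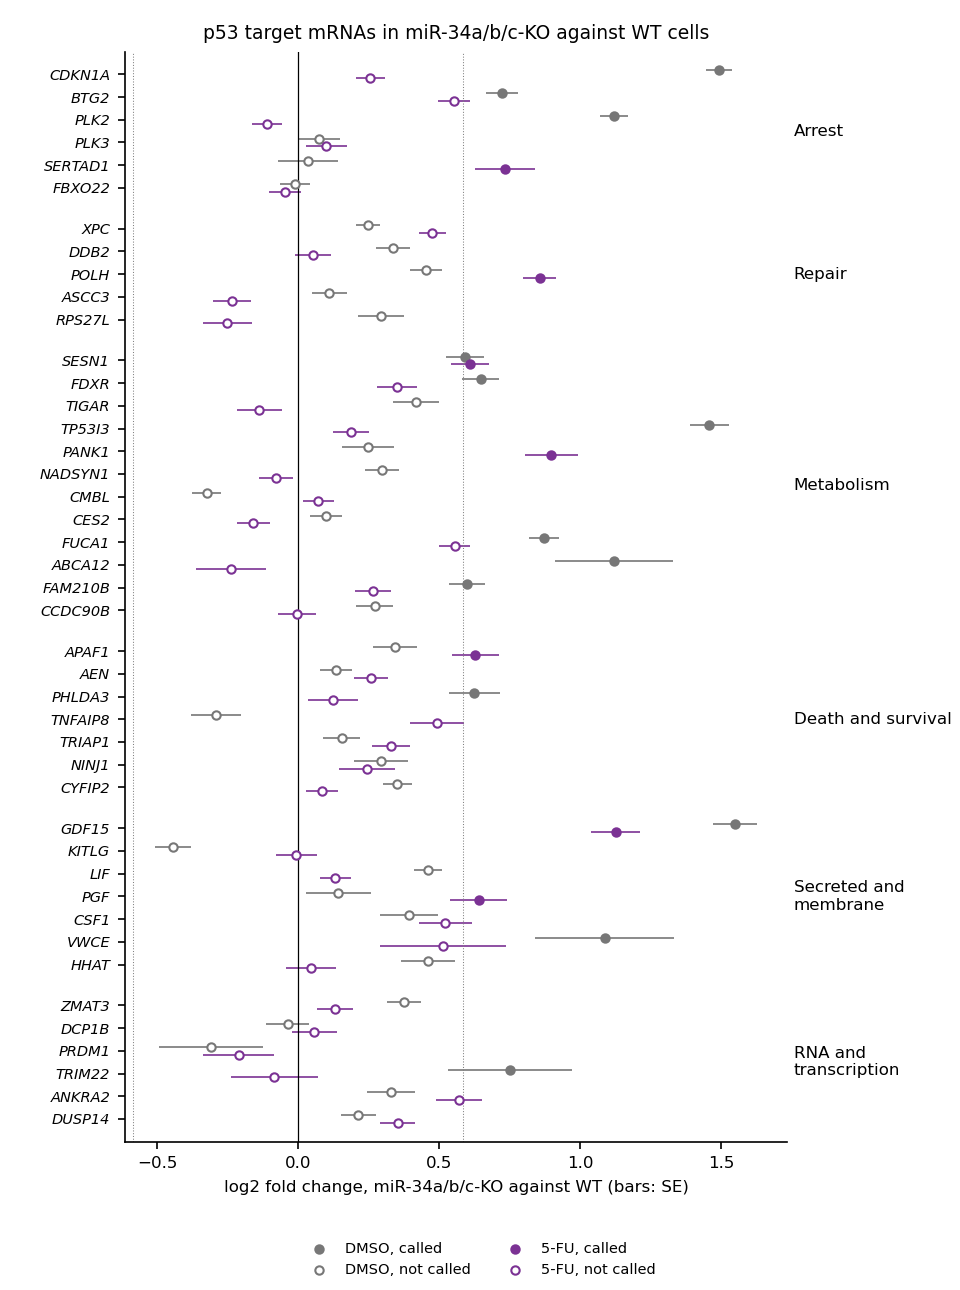
Log2 fold change of *KO* against *WT* cells (horizontal axis) in DMSO (gray) and in 5-FU (purple) for the same 43 members ordered by role, with bars for the standard error, filled circles for called differences and dotted lines at the minimum fold change of 1.5. *GDF15*, *CDKN1A* and *TP53I3* lie between 1.46 and 1.55 in DMSO, and *GDF15* is the one with the largest value under 5-FU, 1.12.

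Of the 8 death and survival genes, 7 rose in *WT* and 7 in *KO* cells, beside 18.5% and 13.3% of all genes. The 7 in *WT* cells include *EDA2R*, whose call is no support for a rise. *APAF1*, the scaffold of the apoptosome, rose by 0.82 and 1.11 and was higher in *KO* cells under 5-FU by 0.63 (SE 0.08, FDR 1.12e-05, edgeR), which was 0.51 without replicate 2 of *WT* cells under 5-FU. *PHLDA3*, which competes with AKT for membrane lipids, rose by 2.54 and 2.04 and was higher in *KO* cells in DMSO by 0.62 (SE 0.09, FDR 3.27e-05). This call was lost without replicate 2 of *WT* cells in DMSO (0.58) or replicate 2 of *KO* cells in DMSO (0.56). The apoptosis-enhancing nuclease *AEN* rose by 1.25 and 1.38, the mitochondrial survival factor *TRIAP1* by 1.09 and 1.27, *NINJ1*, which ruptures the membrane of dying cells, by 1.62 and 1.57, and *CYFIP2*, a subunit of the WAVE actin complex with a miR-34 match, by 2.13 and 1.86. These 4 genes were not called between the genotypes.

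*TNFAIP8*, a survival factor, was the death and survival gene with a called interaction. It was at 24.0, 23.7 and 26.8 CPM in *WT* and 20.1, 20.6 and 20.2 CPM in *KO* cells in DMSO, and at 20.8 and 24.0 CPM in *WT* and 31.4, 28.1 and 34.9 CPM in *KO* cells under 5-FU. The treatments overlapped in *WT* cells and were separate in *KO* cells. Its change was −0.15 (SE 0.10, FDR 0.184) in *WT* and 0.63 (SE 0.09, FDR 1.02e-05, edgeR) in *KO* cells, with an interaction of 0.78 (SE 0.13, FDR 0.000415). Without replicate 3 of *KO* cells under 5-FU, the rise was 0.55 and no longer passed the minimum fold change.

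*EDA2R*, a receptor of the TNF receptor family with a motif match in intron 1, had 0 counts in the 3 *WT* libraries in DMSO and 20 and 16 counts under 5-FU. In *KO* cells it had 0, 0 and 3 counts in DMSO and 2, 8 and 1 under 5-FU. Both *WT* libraries under 5-FU were thus above every other library, and replicate 2 of them was the only one to reach 20 counts, so that these values are a description. It was at least 4.89-fold higher under 5-FU than in DMSO in *WT* cells and lower in *KO* than in *WT* cells under 5-FU, at −1.86 (SE 0.71, FDR 0.041). This second call was absent with DESeq2 (FDR 0.157), with a replicate block (FDR 0.132) and without replicate 3 of *WT* cells or replicate 1 or 3 of *KO* cells under 5-FU (FDR 0.0978, 0.125 and 0.125). Without replicate 2 of *WT* cells under 5-FU the gene did not reach 20 counts in any library and was not tested.

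Of the 7 genes for secreted and membrane-linked signals, 5 rose in both genotypes and *KITLG* fell. *GDF15*, a stress cytokine of the TGF-beta superfamily, was at 98.3, 95.4 and 100.9 CPM in *WT* and 279.5, 288 and 294 CPM in *KO* cells in DMSO, and at 744 and 553 CPM in *WT* and 1393, 1389 and 1461 CPM in *KO* cells under 5-FU. The *KO* libraries were higher under both treatments, without overlap. The difference was 1.55 (SE 0.08, FDR 2.61e-10, edgeR) in DMSO and 1.12 (SE 0.09, FDR 4.29e-08) under 5-FU, the 5-FU responses were 2.72 (SE 0.09) and 2.30 (SE 0.08), and the interaction of −0.42 (SE 0.12, FDR 0.013) was under the minimum fold change. *GDF15* is also a target of the ATF4 branch of the stress response, of which 17 of 18 listed genes were tested. In DMSO 4 of them were higher and 1 lower in *KO* cells, beside 9.1% and 4.97% of all genes. Under 5-FU 0 were higher and 8 lower, beside 7.58% and 10.6% of all genes. The median under 5-FU was −0.57 for the list and −0.05 for all genes.

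*KITLG*, the ligand of the KIT receptor, was at 1462, 1378 and 1442 CPM in *WT* and 1076, 988 and 1082 CPM in *KO* cells in DMSO, and at 419.6 and 512.5 CPM in *WT* and 469, 442 and 480.5 CPM in *KO* cells under 5-FU. Every library under 5-FU was below every DMSO library, and under 5-FU the genotypes overlapped. It fell by 1.61 on the log2 scale in *WT* cells (SE 0.08, FDR 3.21e-11, edgeR) and by 1.18 in *KO* cells (SE 0.07, FDR 1.99e-10). Its 3′ UTR holds an 8mer match to miR-34, and its difference between *KO* and *WT* cells was −0.45 in DMSO (SE 0.06, FDR 3.4e-05, under the minimum fold change) and −0.01 under 5-FU.

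*PGF*, a ligand of the VEGF family, rose by 1.77 and 2.26 and was higher in *KO* cells under 5-FU by 0.64 (SE 0.10, FDR 7.1e-05, edgeR), at 29.3, 31.9 and 30.6 CPM beside 22.0 and 17.1 CPM in *WT* cells. Without replicate 3 of *WT* cells under 5-FU this difference was 0.47. *CSF1*, the macrophage colony-stimulating factor, rose by 1.43 and 1.56, and *HHAT*, the acyltransferase of Hedgehog ligands, by 1.59 and 1.17. Neither was called between the genotypes. *VWCE*, a secreted protein with von Willebrand domains at 0.882 to 5.13 CPM, rose by 1.60 (SE 0.25) and 1.02 (SE 0.21) and was higher in *KO* cells in DMSO by 1.09 (SE 0.25, FDR 0.00184). *LIF*, an interleukin-6 family cytokine, was not called in either genotype, with 0.46 (SE 0.06, FDR 2.11e-06) in *WT* and 0.13 (SE 0.05, FDR 0.0321) in *KO* cells. Its DMSO libraries of *WT* cells at 95.1 to 101.7 CPM lay below all other libraries, which ranged from 131.1 to 154.5 CPM.

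**Figure D4:**
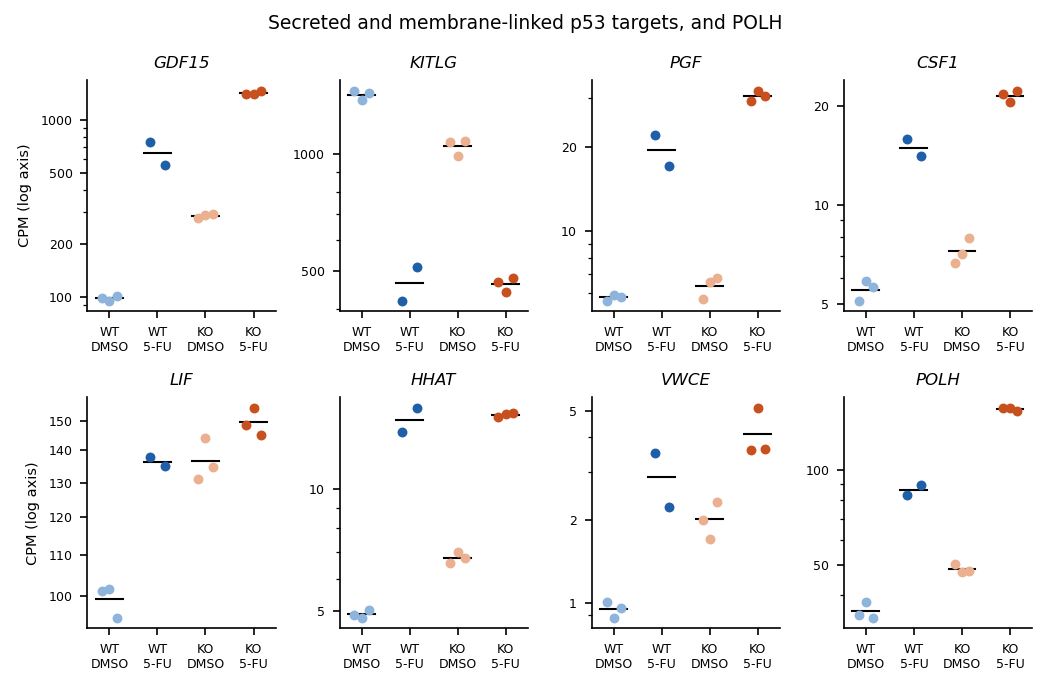
CPM of each library on a log axis for the 7 secreted and membrane-linked members and for *POLH* in the 4 groups (points, libraries; lines, group means). *GDF15* and *POLH* are higher in *KO* than in *WT* cells under both treatments, and *KITLG* is lower under 5-FU in both genotypes.

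The 6 regulators of RNA and transcription rose in both genotypes, except that *DCP1B*, a decapping cofactor, was under the minimum fold change in *WT* cells (0.57, SE 0.08, beside 0.67, SE 0.08). *ZMAT3*, an RNA-binding zinc finger protein whose first intron holds a motif match with 0 mismatches, rose by 2.27 and 2.03. *ANKRA2*, an ankyrin repeat protein, rose by 1.58 and 1.82 and *DUSP14*, a dual-specificity phosphatase, by 1.67 and 1.81. None of these 4 genes was called between the genotypes. *ANKRA2* was close to a call under 5-FU, at 0.57 (SE 0.08, FDR 2.89e-05, edgeR). It passed the minimum fold change with TMM factors (0.61), with DESeq2 (0.62) and without replicate 3 of *KO* cells under 5-FU (0.63).

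*PRDM1*, the transcriptional repressor BLIMP1, was at 1.30, 1.77 and 1.36 CPM in *WT* and 1.30, 1.28 and 0.987 CPM in *KO* cells in DMSO, and at 9.49 and 10.8 CPM in *WT* and 8.80, 8.92 and 8.44 CPM in *KO* cells under 5-FU. All 5-FU libraries were far above the DMSO libraries, and under 5-FU the *WT* libraries lay above the *KO* libraries by a difference that was not called (−0.21, SE 0.13). It rose by 2.79 (SE 0.15, FDR 1.48e-10, edgeR) and 2.89 (SE 0.15, FDR 9.07e-11). *TRIM22*, an antiviral TRIM protein that interferon induces, was at 1.08, 0.882 and 1.013 CPM in *WT* and 1.88, 1.96 and 1.28 CPM in *KO* cells in DMSO, and at 7.65 and 8.98 CPM in *WT* and 7.89, 8.88 and 6.64 CPM in *KO* cells under 5-FU. The genotypes were separate in DMSO and overlapped under 5-FU. It rose by 3.05 (SE 0.19) and 2.21 (SE 0.17), differed by 0.75 (SE 0.22, FDR 0.0101, edgeR) in DMSO, and its interaction of −0.84 (SE 0.27, FDR 0.0307) lost its call with DESeq2 (FDR 0.0638) and without any 1 of 7 libraries, namely replicate 2 or 3 of *WT* and 1 or 2 of *KO* cells in DMSO, replicate 3 of *WT* and 1 or 3 of *KO* cells under 5-FU (−0.72 to −0.85, FDR 0.0522 to 0.0846).

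Over the 11 libraries, the gene whose log2 CPM was most like that of *CDKN1A* among all genes tested was the member *TP53I3* (Pearson r = 0.9985), followed by *ACTA2* (0.996) and *GRIPAP1* (0.9955), which are no members. Of the other 45 members 44 had a positive r, 36 of them over 0.9, with a median of 0.958 over all 45, and *KITLG* had −0.988. The member *DCP1B*, with r = 0.905, was at rank 1312 of all genes, so that most genes over 0.9 lie outside the module. The 11 points share the contrast of 5-FU and DMSO, so these values describe likeness of pattern and carry no test.

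The p53 targets outside the module moved with it. Of 29 tested genes of a list of 30, 25 rose in *WT* and 24 in *KO* cells, beside 18.5% and 13.3% of all genes, with medians of 1.51 and 1.36. The largest changes in *WT* cells were those of *TNFRSF10C*, a decoy death receptor (3.12), *TP53INP1* (3.04) and *MDM2*, the ubiquitin ligase that degrades p53 (2.99), and in *KO* cells those of *SFN*, the G2 arrest protein 14-3-3 sigma (2.82), *TNFRSF10C* (2.57) and *TP53INP1* (2.45). In DMSO 5 of the 29 were higher and 2 lower in *KO* cells, beside 9.1% and 4.97% of all genes, with a median of 0.22. Under 5-FU again 5 were higher and 2 lower, beside 7.58% and 10.6% of all genes, with a median of 0.17. The interaction was called higher for 1 and lower for 2 of the 29, close to the shares of 3.42% and 6.66% of all genes. *MDM2* was among those called lower, at −0.92 (SE 0.09, FDR 4.79e-06, edgeR). It rose from 142, 146 and 134 CPM to 1005 and 1232 CPM in *WT* and from 197, 189 and 192 CPM to 818, 794 and 822 CPM in *KO* cells.

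As a check of the labels, the hairpins of the miR-34 genes had 0 counts in all libraries, so that the counts do not show the deletion. The host transcript *MIR34AHG* was expressed in both genotypes, higher in *KO* cells in DMSO (2.19, SE 0.08, FDR 9.42e-12, edgeR). Of 6 epithelial markers, 5 were expressed and *CDX1* was at 0 in every library. Their summed level was 5249 to 5536 CPM in *WT* and 5449 to 5646 CPM in *KO* cells in DMSO, and 11108 to 12158 CPM and 8538 to 9011 CPM under 5-FU, where *CDH1*, *KRT8*, *KRT18* and *KRT19* were called higher in both genotypes. *EPCAM* went the other way under 5-FU, at −0.385 (FDR 2.76e-05, edgeR) in *WT* and −0.48 (FDR 6.67e-07, edgeR) in *KO* cells, both under the minimum fold change. The part of these markers in the results was not tested. Of 5 markers of other cell types, *PTPRC*, *PECAM1* and *ALB* stayed under the filter, with at most 9 counts in a library. The summed level of these 5 genes was 22.4 to 27.3 CPM in *WT* and 46.4 to 51.1 CPM in *KO* cells in DMSO and 51 to 61.4 CPM and 70.7 to 71.8 CPM under 5-FU, nearly all of it from the collagen gene *COL1A1*, which was called higher under 5-FU in *WT* cells (1.13) and in *KO* cells in DMSO (0.93). In *KO* cells *COL1A1* changed by 0.55 under 5-FU (FDR 1.91e-05, edgeR), under the minimum fold change. *MYH11*, at 0.165 to 1.17 CPM, was called higher under 5-FU in *WT* (0.87, FDR 0.0441, edgeR) and in *KO* cells (1.38, FDR 0.00558, edgeR). The part of both genes in these results was not tested.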

How the data were processed

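RNA of HCT116 cells was isolated, sequenced as paired-end reads from random-primed libraries and mapped to GRCh38 with CLC Genomics Workbench by the authors. The deposited values are counts of reads per gene symbol, whole numbers without filter or normalization, and the handling of strand and of reads shared by genes is not given in the sources used here. Samples were grouped by their titles. The study calls the replicates biological. Whether they are different clones is not stated, so that p-values measure only the spread between these samples. Replicate 1 of *WT* cells under 5-FU was left out as a copy.

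The 16123 genes that reached 20 counts in any library entered a model with 1 mean per group and upper-quartile scaling in edgeR 4.0.16 (R 4.3.3, glmQLFit and glmQLFTest, two-sided). FDR is the Benjamini-Hochberg value over these genes, and calls required FDR < 0.05 and an absolute fold change > 1.5, after the thresholds of the study. CPM used the scaled totals, and log2 CPM a prior count of 2. Bounds against groups without counts used 3 counts per library and cover counting error only. The script was tested on simulated data. Alternatives were TMM factors, DESeq2 1.42.0, 2 other filters, no minimum fold change, glmTreat, RUVg with 1 factor (the study does not name its control genes), replicate blocks, the copied library kept, and each library left out.

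Every member was to be named with its role. Values per library were to be given for the 6 largest called changes of a comparison, for called interactions, for members called lower and for *CDKN1A*, and the 3 largest called changes for each of the other lists. Values of further members, and of *COL1A1* and *MYH11*, were added after they were seen. Members and lists were chosen with earlier results of these data known. For sequences, 14135 of 16123 symbols and all 46 members matched GENCODE release 44, and mature miRNAs came from RefSeq (GRCh38.p14). Some matches and 1 gene are not reported here.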

Additional observations from a re-analysis of the deposited data

Results flagged for a closer look

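The 5-FU responses of 8 members differed between *KO* and *WT* cells by the test of the interaction (edgeR, FDR < 0.05 and a ratio of fold changes > 1.5). On the log2 scale the differences were −1.27 for *TP53I3*, −1.36 for *ABCA12*, −1.23 for *PLK2*, −1.24 for *CDKN1A* and −0.84 for *TRIM22*, whose *KO* libraries were all above the *WT* libraries in DMSO, and 0.78 for *TNFAIP8*, 0.65 for *PANK1* and 0.70 for *SERTAD1*, whose *KO* libraries were all above the *WT* libraries under 5-FU. The calls of *TRIM22*, *PANK1* and *SERTAD1* were lost when certain single libraries were left out. With the minimum fold change inside the test (glmTreat), these calls and that of *TNFAIP8* were lost.

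Among the named genes of the other lists, the response differed for *MDM2* (−0.92), *CHAC1* (−2.43), *NUPR1* (−1.90) and *SLC7A11* (−1.44). *CHAC1*, a glutathione-degrading enzyme induced through ATF4, rose by 3.37 in *WT* and by 0.95 in *KO* cells, and *SLC7A11*, the cystine transporter, changed by 0.22 (not called) and −1.22.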

How the results depend on the processing

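The 5-FU calls of the members (40 and 1 in *WT*, 43 and 1 in *KO* cells) stayed within 1.5 times under all alternatives except RUVg (0 and 0 in both genotypes) and, in *WT* cells, the copied library kept under its label (0 and 0, with 0 of all genes called). The copied library also left 3 members higher in DMSO, 14 higher and 0 lower under 5-FU, and an interaction for 1 higher and 0 lower. Without a minimum fold change, 31 members were higher and 3 lower in *KO* cells in DMSO, 23 and 4 under 5-FU, and the interaction was called higher for 8 and lower for 21. With the minimum inside the test (glmTreat), 6 were higher in DMSO, 4 higher and 0 lower under 5-FU, and 0 had a higher interaction. The 1 member lower in *KO* cells under 5-FU, *EDA2R*, was called in 0 cases with DESeq2, with at least 20 counts in every library, with RUVg, with the replicate block and with a block by the numbers in the column headers (a setting chosen after seeing the data), and in 0 to 1 with 1 library left out.

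Same-numbered libraries did not deviate together (r −0.09 to 0.08 over 15 pairs), which gave no sign of pairing by number. It cannot exclude pairing, since the 2 *WT* libraries under 5-FU deviate as mirror images. Their titles number them 2 and 3, their column headers 1 and 2. The replicate block changed no call of a member but those of *EDA2R* and of *GLS2*, which was called higher in *WT* cells (2.67, 41 members in all). With RUVg, values turned sign for *SERTAD1* (−2.42 in *WT* and −1.30 in *KO* cells), *FDXR* (−0.20 and −0.21), *NADSYN1* (−0.57 and −0.68), *CES2* (−0.66 and −0.66), *AEN* (−0.77 and −0.41), *PHLDA3* (−1.82 and −1.81), *NINJ1* (−1.85 and −1.49), *GDF15* (−0.74 and −0.75), *KITLG* (1.08 and 1.21), *PGF* (−2.16 and −1.21) and *VWCE* (−6.67 and −6.29), for *GLS2* in *KO* cells (−3.71), and in DMSO between the genotypes for *PHLDA3* (−0.073) and *VWCE* (−0.22). The factor removed was 98.16% between the treatments. Depth limits *GLS2*, *SPATA18* and *EDA2R*, with at most 27, 30 and 20 counts in a library.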

Other observations

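The ATF4 list, the other stress program to which *GDF15* belongs, responded more in *WT* cells. Of its 17 tested genes 8 rose and 0 fell under 5-FU in *WT* cells, beside 18.5% and 9.38% of all genes. In *KO* cells 4 rose and 3 fell, beside 13.3% and 12% of all genes. The median log2 fold change of the list was 0.55 in *WT* and 0.22 in *KO* cells, that of all genes 0.03 and −0.06. The largest called changes in *WT* cells were those of *NUPR1*, a stress-induced chromatin protein (4.24), *CHAC1* (3.37) and *ATF3*, a transcription factor (2.42), and in *KO* cells those of *NUPR1* (2.34), *ATF3* (1.98) and *SLC7A11* (−1.22). The interaction was called for 8 of the 17, each of them lower in *KO* cells, beside 6.66% of all genes. For *ATF3*, which p53 also induces, the interaction was −0.43 (SE 0.10, FDR 0.00513, edgeR), under the minimum fold change. *NUPR1* was at 0.0361 to 0.221 CPM in *WT* cells in DMSO, so that its fold changes rest on few counts.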
